A study of Drosophila melanogaster with 8 samples.

Results

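The genes described here are 45 Drosophila genes that encode ion channels and neurotransmitter receptors, out of 17161 genes to which the counted features could be assigned. They were chosen by name, not by their values, and comprise 3 sodium and leak channel genes, 16 potassium and Ih channel genes, 5 calcium channel genes, 10 acetylcholine receptor genes, 6 GABA receptor and glutamate-gated chloride channel genes and 5 glutamate receptor genes. All 45 were represented in the count files, by 313 RefSeq transcript identifiers, of which 90 had at least 1 count, and 42 of the genes had at least 1 count.

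Voltage-gated sodium channels carry the upstroke of the action potential, potassium channels repolarise the membrane and set how often a neuron fires, and voltage-gated calcium channels couple electrical activity to transmitter release and to calcium signals. In the insect brain acetylcholine is the main fast excitatory transmitter, acting on nicotinic receptors assembled from alpha and beta subunits, while GABA and glutamate open chloride channels that inhibit. The list also holds G protein-coupled receptors for the same transmitters (mAChR-A, mGluR, GABA-B-R1 and GABA-B-R2), which act more slowly. STIM is a sensor of calcium in the endoplasmic reticulum that opens store-operated calcium channels of the plasma membrane.

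Brains of second instar larvae were compared between the wild-type strain Canton S (CS, 58 to 62 h after egg laying) and STIM KO, a null mutant of Stim (72 to 76 h), with 4 libraries per genotype, each from pooled brains. The older mutants were matched to the controls by developmental stage, so genotype and age cannot be told apart. The mutation is carried by the whole animal, and the brain is a mixture of neurons, glia and neuroblasts, so fewer cells of a type and less RNA per cell cannot be told apart either. Each library was described in the labels as a separate biological replicate.

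The counted reads of a library ranged from 395680 to 2090717, and the members took 0.424% to 1.96% of them. Values are in CPM, counts scaled to a common library total. Where no read was counted, as many as 3 are possible, which is 1.25 to 9.62 CPM depending on the library and covers counting error only. The 8 libraries formed 2 sets that the labels do not name. In replicates 1 and 2 of both genotypes 18.9% to 29.5% of the reads were not aligned and 9.89% to 18.0% were ambiguous between features, against 6.06% to 7.03% and 33.5% to 34.5% in replicates 3 and 4. Of the deleted gene, the identifier NM_001298380.1 had 6.41, 6.06, 2.77 and 3.75 CPM in the 4 CS libraries and was at 0 in all 4 STIM KO libraries. Another identifier of Stim, NM_206747.3, held 73.0% of the counts of the gene and had 12.8, 2.02, 2.77 and 2.08 CPM in CS and 14.0, 27.7, 1.45 and 0.989 in STIM KO, so that Stim as a whole overlapped between the genotypes and was highest in STIM KO replicate 2. These values rest on 1 to 19 reads per library, the extent of the deletion is not given in the sources used here, and the genotype labels are thus checked by the first identifier only. Of the neuronal markers, elav ranged from 150 to 1263 CPM in CS and from 252 to 1106 in STIM KO, and of the glial markers repo from 116 to 359 CPM and from 145 to 274. By elav and repo, neurons and glia were represented in every library. Other markers of both lists were at 0 in some libraries, such as VGlut and Gad1 in CS replicate 1 and nrv2 and Eaat1 in STIM KO replicate 2.

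The counts of these genes rose with the number of their bases from which a read could be assigned. Channel and receptor genes are long and rich in isoforms: their median length over all exons was 6273 bases, against 1463 for all genes, and para had 60 transcript identifiers. Only exon bases that belong to exactly 1 annotated transcript are free of ambiguity when reads are counted per transcript, and these countable bases were a median of 16.2% of the exon bases of the members, against 70.5% over all genes. Across the 45 members, total counts followed the countable bases (Spearman's rho 0.826) and hardly the exon bases (rho 0.237), and the points share the same 8 libraries.

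Of the 24 members with at least 1000 countable bases, 23 passed the expression filter, with a median of 1860 counts over the 8 libraries. Of the 16 with at least 100 but under 1000 countable bases, 10 passed, with a median of 206.5 counts. None of the 5 with fewer than 100 passed. Among these last were eag, a voltage-gated potassium channel with 24 countable bases, Ork1, an open-rectifier potassium channel with 73, and GABA-B-R2, a GABA-B receptor subunit with 15. All 3 had 0 counts in each of the 8 libraries, which limits only what could be counted and not whether they were expressed. The other untested members with counts were Elk, na, Irk1, Irk2, nAChRalpha2, nAChRalpha4, nAChRalpha6, nAChRalpha7 and mAChR-A, with 4 to 81 counts in total.

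**Figure D1:**
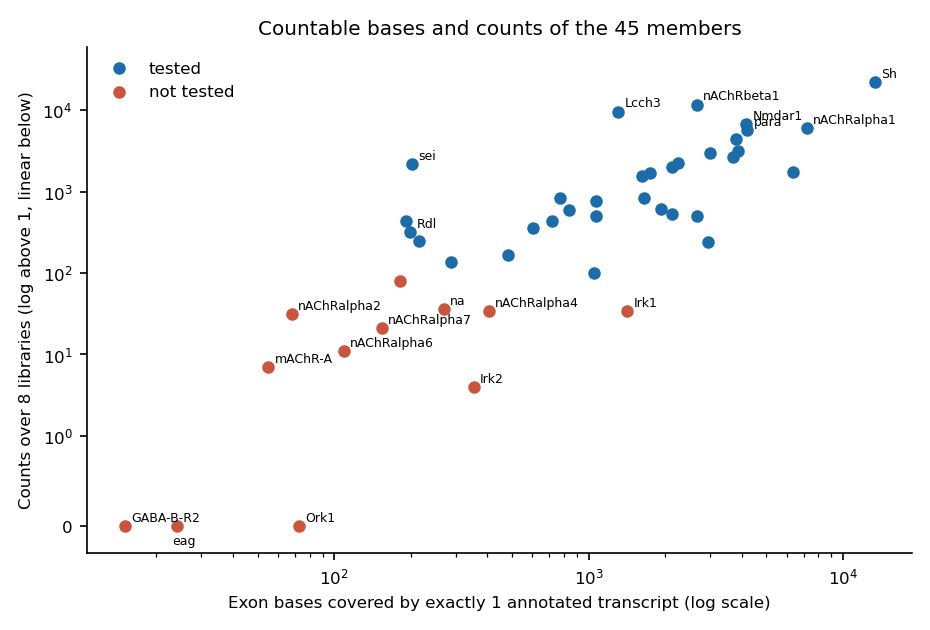
Total counts over the 8 libraries of each member (y axis, log scale above 1 and linear below) against its exon bases covered by exactly 1 annotated transcript (x axis, log scale), with tested genes in blue and untested genes in red. Counts rise with countable bases from eag, Ork1 and GABA-B-R2 at 0 counts to Sh at 22068, and sei and Lcch3 lie above other genes of similar countable length.

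The level in CS was compared between genes per kilobase. By exon bases the highest were Lcch3, a GABA receptor subunit, at 330 ± 44.1 CPM per kb (SD, n = 4), Nmdar1, the obligatory NMDA receptor subunit, at 301 ± 239 CPM per kb (SD, n = 4), and nAChRbeta1, a nicotinic beta subunit, at 262 ± 64.3 CPM per kb (SD, n = 4). These 3 levels differed from each other by less than the SD of Nmdar1, and their order was not that of either library set. In CS replicates 1 and 2 Nmdar1 was first with a mean of 507 CPM per kb, before Lcch3 (352) and Sh (317). In CS replicates 3 and 4 nAChRbeta1 was first with 316 CPM per kb, before Lcch3 (309) and GluRIA (105), and Nmdar1 had 94.7. Lcch3 was thus second in both sets. Next came Sh, the fast inactivating potassium channel Shaker, at 167 ± 184 CPM per kb (SD, n = 4), nAChRalpha1 at 85.8 ± 87.3 and para, the sodium channel of the action potential, at 85.4 ± 109 (SD, n = 4 for both), whose levels overlapped between libraries.

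The order changed with the length used. By countable bases sei, an ERG-type potassium channel, was first with 738 ± 246 CPM per kb (SD, n = 4), followed by Lcch3 with 481 ± 64.2 and para with 331 ± 422 (SD, n = 4 for both). Of the 10 highest members by exon bases, 6 were also among the 10 highest by countable bases. The 203 countable bases of sei lie beside 359 exon bases shared with gammaSnap1 on the opposite strand, and the library kit does not mark strand, so its level is uncertain. Exon bases were shared with another gene in 12 members.

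In 28 of the 33 members tested the difference in mean log2 CPM between the library sets was larger than that between the genotypes, as in 74.0% of all genes tested. The plot of the members by library shows para, Sh, slo, nAChRalpha1, nAChRalpha3 and nAChRalpha5 in 2 clouds, with replicates 1 and 2 above replicates 3 and 4. For slo, the large-conductance calcium-activated potassium channel, the CPM were 372, 530, 3.69 and 2.501 in CS (replicates 1, 2, 3 and 4) and 224, 268, 16.9 and 5.93 in STIM KO. For nAChRalpha5 they were 875, 896, 9.23 and 11.3 in CS and 385, 459, 33.3 and 12.4 in STIM KO. In both genes every library of replicates 1 and 2 was more than 10 times the level of every library of replicates 3 and 4 of its own genotype.

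Of the 33 members tested, 17 were higher in every library of replicates 1 and 2 than in any of replicates 3 and 4, as were 19.3% of all genes tested. In 4 members (nAChRbeta1, nAChRbeta2, Grd and GluRIA) every library of replicates 1 and 2 was lower, as in 24.8% of all genes, and 12 overlapped. By role, the 17 comprised 5 of 11 tested potassium and Ih channel genes, 4 of 5 calcium channel genes, both tested sodium channel genes, 3 of 5 acetylcholine receptor genes, 1 of 5 GABA and chloride channel genes and 2 of 5 glutamate receptor genes. The neuronal marker list moved in the same way in 5 of its 11 genes and in the opposite way in 2, and its part in the difference was not tested.

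Among the members the set difference, taken with its sign, rose with the span of the gene and to a similar degree with its exon bases. Among the 33 members the difference in mean log2 CPM, replicates 1 and 2 minus replicates 3 and 4, correlated with gene span at a Spearman's rho of 0.605, and among the 5493 other genes tested with a known span at 0.084. With exon bases the members gave 0.590 and with countable bases 0.077. These correlations are across genes of the same 8 libraries and carry no test. The 9 members of 50 kb and over had a median log2 difference of 3.51, and 8 of them did not overlap between the sets. The 6 members under 10 kb had a median of -0.11. The other genes of these span classes had medians of 1.38 and -0.48.

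**Figure D2:**
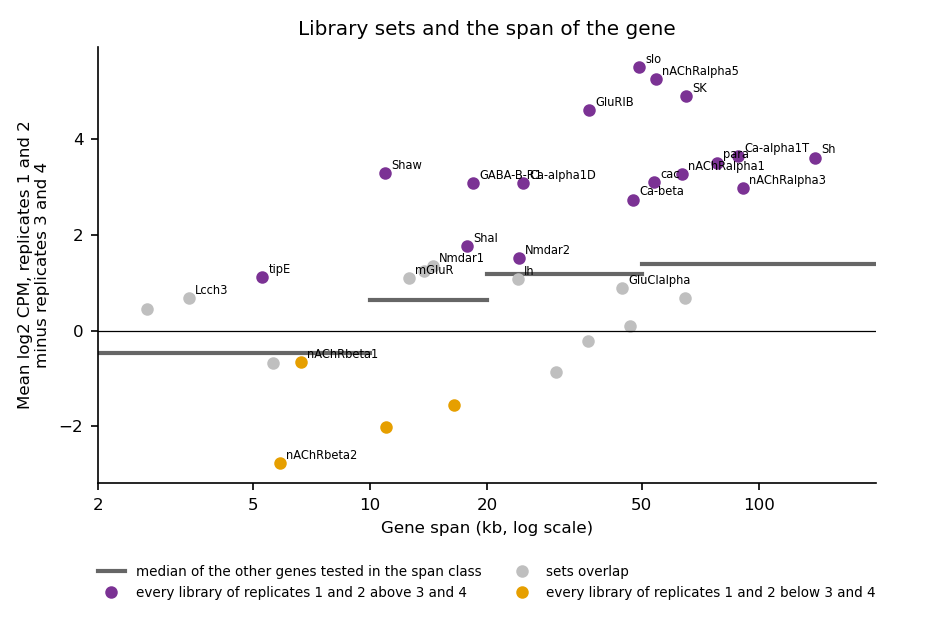
Difference in mean log2 CPM between replicates 1 and 2 and replicates 3 and 4 (y axis) against gene span in kb (x axis, log scale) for the 33 members tested, coloured by whether the 2 sets overlap, with grey bars for the median of the other genes tested in each span class. The 9 members of 50 kb and over lie between 0.68 and 5.26, and the members below 0 include nAChRbeta2 at -2.78 and GluRIA at -2.02.

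**Figure D3:**
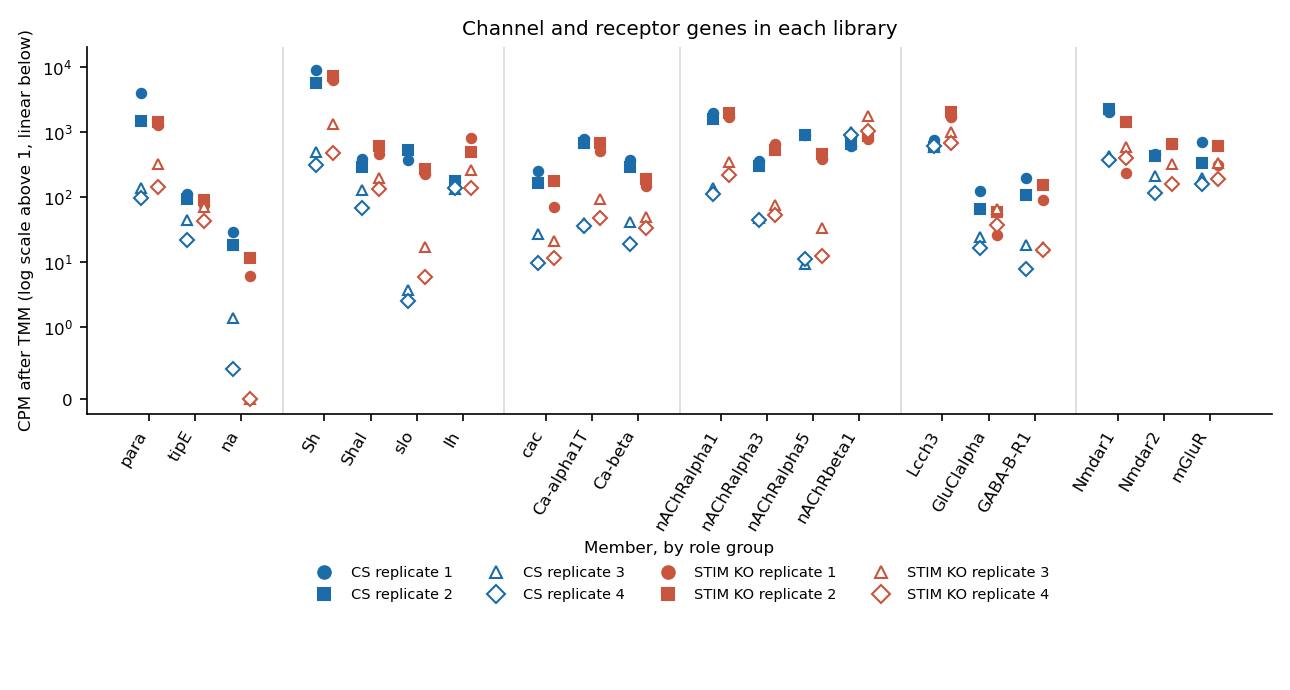
CPM of 20 members in each library (y axis, log scale above 1 and linear below), CS in blue and STIM KO in red, filled symbols for replicates 1 and 2 and open symbols for replicates 3 and 4. For para, Sh, slo, the calcium channel genes and nAChRalpha5 the filled and open symbols separate, while Lcch3 and nAChRbeta1 stay within a narrower range.

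In the comparison of STIM KO with CS, none of the channel and receptor genes passed the adjusted threshold. The quasi-likelihood (QL) test of edgeR, with Benjamini-Hochberg (BH) adjustment over 5540 genes, gave 0 members and 0 genes (0.0%) with an adjusted p under 0.05, and the smallest adjusted p of a member was 0.696. At an unadjusted p under 0.05 there was 1 member, higher in STIM KO, against 6.52% of all genes (3.56% higher and 2.96% lower). DESeq2 called 78 genes at an adjusted p under 0.05, none of them a member, and gave 2 members an unadjusted p under 0.05, against 9.35% of all genes. Positive log2 fold changes were found in 20 members and negative ones in 13, beside 52.6% positive among all genes. Their median was 0.14, beside 0.04 for all genes.

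With the library set as a term in the same model, 39 genes (0.704%) had an adjusted p under 0.05, and the members again had 0, with a smallest adjusted p of 0.144. By the same edgeR fit 4 members had an unadjusted p under 0.05, all higher in STIM KO (8.94% of all genes were higher and 8.03% lower at this level, 17.0% in all). They were Ih, Lcch3, nAChRalpha3 and Shal. Log2 fold changes were then positive in 26 of 33 members, which is 78.8%, beside 55.9% of all genes, and their median was 0.38, beside 0.10. With the replicate number as a block, 16 genes (0.289%) and 0 members had an adjusted p under 0.05. There, 3 members (Ih, Lcch3 and Shal) had an unadjusted p under 0.05, all higher in STIM KO, beside 14.7% of all genes (7.6% higher and 7.13% lower). Log2 fold changes were positive in 28 members (84.8%), beside 55.2% of all genes.

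By CPM with TMM factors, no member had all STIM KO libraries above or all below all CS libraries, as 3.21% and 3.01% of all genes had. Scaled by library size only, Ih and Lcch3 had every STIM KO library above every CS library. The share of all genes that did so was not counted for this scaling. Within both library sets, by CPM with TMM factors, every STIM KO library was above every CS library in 5 tested members (9.95% of all genes), and every one below in 0 (9.31%). These 5, of which KCNQ was named after its values were seen, were Shal, KCNQ, nAChRalpha3, nAChRbeta1 and Lcch3. Between same-numbered libraries, a comparison added after the data were seen, STIM KO was above CS in all 4 pairs in 9 members (these 5, Shab, sei, GluRIA and Nmdar2), beside 15.9% of all genes, and below in all 4 pairs in 0, beside 13.2%. In replicates 1 and 2 alone, 7 members were higher in both STIM KO libraries and 8 lower, beside 28.2% and 22.6% of all genes. In replicates 3 and 4 alone, 15 were higher and 0 lower, beside 26.6% and 27.3%. These counts are of the 33 members tested. Among the untested, nAChRalpha4 was higher and na lower in both STIM KO libraries within each set, on 34 and 36 counts in all.

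**Figure D4:**
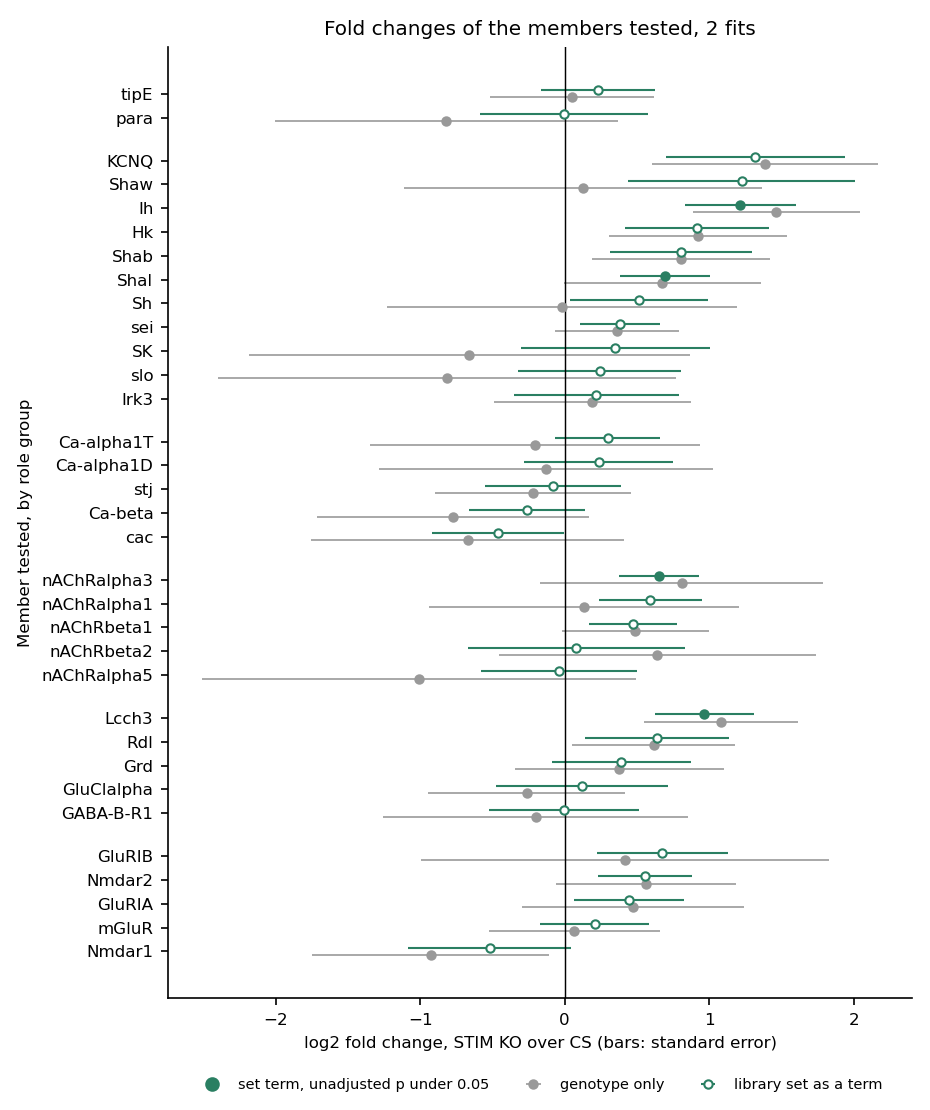
Log2 fold change of STIM KO over CS with its standard error (x axis) for the 33 members tested (y axis), from the fit with genotype only in grey and from the fit with the library set as a term in green, filled where the unadjusted p was under 0.05. All 11 potassium and Ih channel genes lie above 0 in the second fit, between 0.22 and 1.32, beside 55.9% of all genes above 0. No member had an adjusted p under 0.05 in either fit.

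Neither of the tested sodium channel genes had an unadjusted p under 0.05 in any of the 3 fits of edgeR (genotype only, set term or replicate block). The sodium channel para had 3882, 1460, 136 and 95.0 CPM in CS (replicates in order) and 1269, 1432, 314 and 144 in STIM KO. It was lower in both STIM KO libraries of replicates 1 and 2 and higher in both of replicates 3 and 4, and its log2 fold change was -0.82 (standard error, SE, 1.18) without and -0.0037 (0.58) with the set term. Its auxiliary subunit tipE had 112, 91.0, 44.8 and 21.7 CPM in CS and 73.9, 90.3, 69.1 and 42.5 in STIM KO, lower in both STIM KO libraries of replicates 1 and 2 and overlapping in replicates 3 and 4. The log2 fold change of tipE was 0.05 (standard error 0.57) without and 0.23 (0.40) with the set term. The sodium leak channel na (narrow abdomen) had 9, 9, 3 and 1 reads in CS and 6, 8, 0 and 0 in STIM KO, too few for the test.

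All 11 tested potassium and Ih channel genes had a positive log2 fold change with the set term, with a median of 0.70, beside 55.9% of all genes. Without it 8 of 11 were positive, with a median of 0.36, beside 52.6% of all genes. In edgeR's QL test an unadjusted p under 0.05 was reached by Ih and Shal with the set term, 2 of 11 beside 17.0% of all genes, and by Ih alone without it. Over the 16 genes of the group, 2 (eag and Ork1) had no counts.

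Ih encodes the hyperpolarization-activated cation channel that carries the pacemaker current, and lies on chromosome 2R from 14276130 to 14300095 in dm6 (plus strand). It had 170, 176, 132 and 135 CPM in CS and 807, 492, 254 and 134 in STIM KO. The 4 CS libraries were close to each other, 3 STIM KO libraries lay above them all, and STIM KO replicate 4 lay among them. The means were 153 ± 23.2 CPM (CS) and 422 ± 297 CPM (STIM KO; SD, n = 4 each), and the difference in mean log2 CPM was 1.16 by the exact permutation test over 70 labelings (2-sided p = 0.114, smallest possible 0.0286). Scaled by library size in place of TMM factors, every STIM KO library was above every CS library and the difference was 1.21, with the smallest p possible. With TMM factors the difference was 1.86 within replicates 1 and 2 and 0.47 within replicates 3 and 4.

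In the fit without a set term the log2 fold change of Ih was 1.46 (standard error 0.58), for an unadjusted p of 0.030 and a BH-adjusted p of 0.696 in the QL test of edgeR. After the set term was added it was 1.22 (0.38), for an unadjusted p of 0.0093 and a BH-adjusted p of 0.144 in the same edgeR test. Without the set term the unadjusted p of edgeR rose above 0.05 when any CS library, STIM KO replicate 1 or STIM KO replicate 2 was left out (0.0543 to 0.118) and stayed below it without STIM KO replicate 3 or 4. In the fit with the term it was 0.0026 to 0.0497 over the 8 libraries left out. Leaving out STIM KO replicate 1 brought Ih to 0.89 on the log2 scale in both fits. By limma voom, without a set term, it was 0.64 (SE 0.43) at an unadjusted p of 0.174.

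The counts of Ih were divided among its RefSeq identifiers in a different way in 2 of the STIM KO libraries. The identifier NM_001259388.2 had 16.0, 36.4, 11.5 and 7.09 CPM in CS and 634, 358, 38.2 and 17.3 in STIM KO, and NM_001038858.4 had 135, 127, 87.7 and 90.9 in CS and 170, 125, 192 and 91.4 in STIM KO. The first took 5.3% to 20.7% of the counts of Ih in CS, 78.6% and 72.8% in STIM KO replicates 1 and 2, and 15.02% and 12.9% in STIM KO replicates 3 and 4. With the set term it had a log2 fold change of 2.85 (SE 0.62; edgeR QL test, BH-adjusted p = 0.072 over 5829 identifiers), and NM_001038858.4 one of 0.42 (SE 0.33; BH-adjusted p = 0.539). A further identifier, NM_001259391.2, had 12.8, 10.1, 30.9 and 35.4 CPM in CS and 0, 0, 21.7 and 23.7 in STIM KO, so the same 2 libraries stood at opposite ends for it. Only the reads that fall on bases particular to 1 transcript enter these values, so they are not shares of all Ih messages.

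Sh lies on chromosome X from 17924307 to 18063247 (minus strand), has the longest span of the members and had the most counts. It had 8944, 5513, 491 and 310 CPM in CS and 6204, 7078, 1310 and 472 in STIM KO, so the sets separated and the genotypes overlapped within both. Its log2 fold change was -0.02 (standard error 1.21) without and 0.51 (0.48) with the set term. The identifier NM_078669.5 took 21.9%, 33.6%, 20.6% and 28.5% of the counts of Sh in CS and 58.1%, 53.7%, 23.3% and 23.5% in STIM KO, and NM_167594.4 took 76.6%, 64.3%, 47.5% and 44.8% in CS and 33.6%, 42.2%, 58.3% and 54.3% in STIM KO. The identifier with the larger part was thus NM_167594.4 in 6 libraries and NM_078669.5 in STIM KO replicates 1 and 2, the same libraries in which NM_001259388.2 led among those of Ih. In the fit with sets NM_078669.5 had 1.04 (SE 0.37) on the log2 scale, at a BH-adjusted p of 0.202 in the QL test of edgeR.

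**Figure D5:**
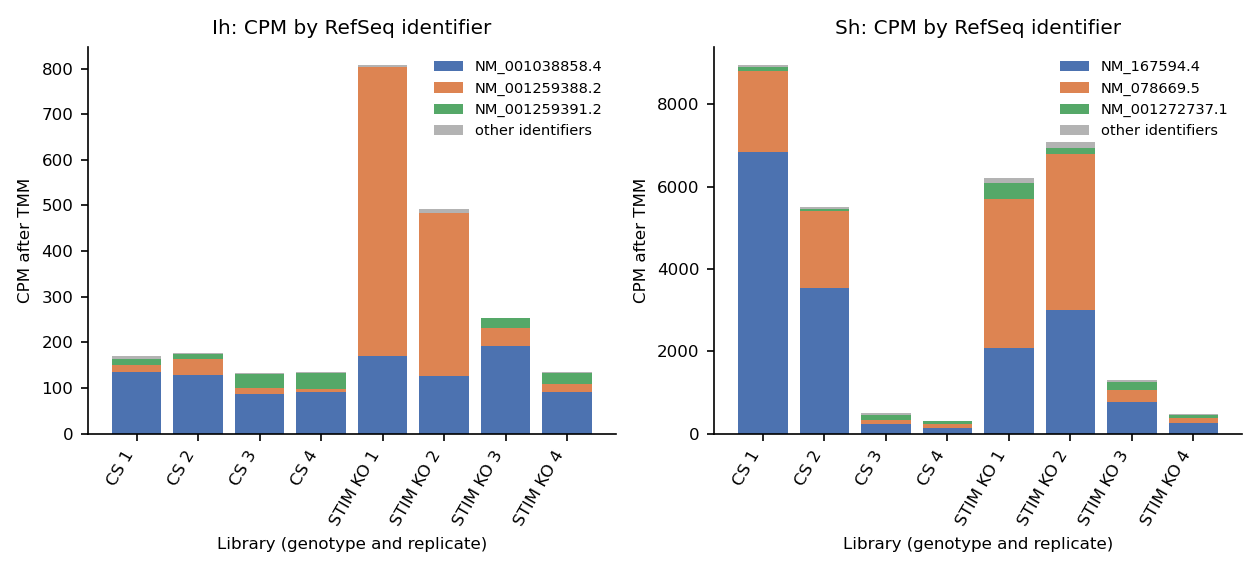
CPM of Ih (left) and Sh (right) in each of the 8 libraries (x axis), stacked by RefSeq transcript identifier (y axis, CPM). In Ih the NM_001259388.2 part reaches 634 and 358 CPM in STIM KO replicates 1 and 2 and is at most 38.2 CPM elsewhere, and in Sh the NM_078669.5 part is the larger in the same 2 libraries.

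Shal encodes the A-type potassium channel of dendrites and cell bodies and lies on chromosome 3L from 19566851 to 19584568 (minus strand). It had 385, 289, 127 and 67.5 CPM in CS and 459, 598, 192 and 132 in STIM KO. Within each set both STIM KO libraries were above both CS libraries, by 0.65 in replicates 1 and 2 and 0.78 in replicates 3 and 4 on the log2 scale, and over all 8 libraries the genotypes overlapped (exact permutation test, 2-sided p = 0.371). The log2 fold change was 0.68 (SE 0.68) without the set term. Adding the term gave 0.70 (SE 0.31), at an unadjusted p of 0.0475 and a BH-adjusted p of 0.288 in the QL test of edgeR, and the unadjusted p was under 0.05 only when CS replicate 3 or STIM KO replicate 1 was left out.

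The remaining potassium channel genes were given by smaller counts. The fold change of slo was -0.81 (standard error 1.58) without and 0.24 (0.56) with the set term on the log2 scale. KCNQ, the M-type channel, had the highest point value with the set term, 1.32 (standard error 0.62), on 101 counts in all, and its difference in mean log2 CPM was 1.56 (exact permutation test, 2-sided p = 0.057). The other 6 tested members of the group (Shab, a delayed rectifier; Shaw; sei; SK, a small-conductance calcium-activated channel; Hk, the beta subunit of Shaker channels; and the inward rectifier Irk3) lay between 0.22 and 1.23 with the set term, none with an unadjusted p under 0.05.

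Calcium channel genes were the only role group with no positive log2 fold change without the set term, 0 of 5, with values from -0.77 to -0.13. Of all genes 52.6% were positive in that fit. In the fit with the set term 2 of 5 were positive, beside 55.9% of all genes, and the values ran from -0.46 to 0.30. None of these genes had an unadjusted p under 0.05 in the QL test of edgeR in either fit. The presynaptic channel cac (cacophony) had 247, 164, 27.2 and 9.59 CPM in CS and 68.9, 178, 21.3 and 11.4 in STIM KO. The T-type channel Ca-alpha1T had 779, 663, 39.2 and 35.4 CPM in CS and 504, 665, 94.2 and 47.0 in STIM KO. The genotypes of cac overlapped within both sets, and Ca-alpha1T overlapped in replicates 1 and 2 and was higher in both STIM KO libraries of replicates 3 and 4.

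The auxiliary subunit Ca-beta had 372, 291, 40.6 and 19.2 CPM in CS and 149, 188, 49.7 and 33.6 in STIM KO. It was lower in both STIM KO libraries of replicates 1 and 2 and overlapped in replicates 3 and 4. The log2 fold changes without and with the set term were -0.67 (standard error 1.08) and -0.46 (0.46) for cac, -0.21 (1.14) and 0.30 (0.36) for Ca-alpha1T, and -0.77 (0.94) and -0.26 (0.40) for Ca-beta. The L-type channel Ca-alpha1D and the alpha2delta subunit stj had 168 and 245 counts in all.

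The identifiers of cac had point values of opposite sign. When sets were a term, NM_001258707.2, which held 51.6% of the counts of the gene, had -1.61 (SE 0.61) on the log2 scale at a BH-adjusted p of 0.224 in the QL test of edgeR. NM_001272548.1, with 25.7% of the counts, had 1.26 (SE 0.58) at a BH-adjusted p of 0.308 in the same edgeR test. Over all 48 member identifiers tested, 0 had an adjusted p under 0.05 in either fit, 2 had an unadjusted p under 0.05 without and 9 with the set term, beside 6.09% and 16.8% of all identifiers, and the smallest adjusted p was that of NM_001259388.2 of Ih.

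Among the acetylcholine receptors 4 of the 5 tested genes had a positive log2 fold change in both fits, beside 52.6% of all genes without and 55.9% with the set term. The alpha subunit nAChRalpha3 lies on chromosome X from 8276200 to 8367169 (minus strand) and had 356, 293, 48.0 and 44.2 CPM in CS and 641, 521, 73.9 and 53.4 in STIM KO. Both STIM KO libraries were above both CS libraries within each set, by 0.84 in replicates 1 and 2 and 0.44 in replicates 3 and 4 on the log2 scale, and overlapped across the sets (exact permutation test, 2-sided p = 0.514). The log2 fold change was 0.81 (standard error 0.98) without and 0.66 (0.28) with the set term, where the unadjusted p was 0.0376 and the BH-adjusted p 0.260 in the QL test of edgeR. The unadjusted p stayed under 0.05 only without STIM KO replicate 4, and was 0.0552 with the replicate block.

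The beta subunit nAChRbeta1 had 593, 641, 986 and 893 CPM in CS and 771, 846, 1743 and 1011 in STIM KO. The means were 778 ± 191 CPM (CS) and 1093 ± 445 CPM (STIM KO; SD, n = 4 each). It was higher in STIM KO within both sets, with a difference in mean log2 CPM of 0.44 over all libraries (exact permutation test, 2-sided p = 0.229). Its log2 fold change was 0.49 (standard error 0.51) without and 0.47 (0.30) with the set term.

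The alpha subunit nAChRalpha1 had 1956, 1583, 135 and 112 CPM in CS and 1686, 1914, 340 and 214 in STIM KO. It overlapped in replicates 1 and 2 and was higher in both STIM KO libraries of replicates 3 and 4, and its log2 fold change was 0.14 (standard error 1.07) without and 0.59 (0.36) with the set term. The values of nAChRalpha5 given above correspond to -1.01 (1.503) and -0.04 (0.54). In nAChRbeta2 the log2 fold change was 0.64 (1.10) and 0.08 (0.75). The 4 alpha subunits not tested (nAChRalpha2, nAChRalpha4, nAChRalpha6 and nAChRalpha7) and the muscarinic receptor mAChR-A had 7 to 34 counts in all, with 55 to 405 countable bases.

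Of the GABA receptors, Lcch3 had the highest level. It encodes a GABA receptor subunit that forms cation channels with Grd in expression systems, and lies on chromosome X from 15925105 to 15928529 (plus strand). It had 753, 586, 573 and 602 CPM in CS and 1682, 2007, 975 and 660 in STIM KO. The CS libraries were close together, 3 STIM KO libraries were above all of them, and STIM KO replicate 4 was below CS replicate 1 and above the other 3. The means were 629 ± 83.9 CPM and 1331 ± 621 CPM (SD, n = 4 each), and the difference in mean log2 CPM was 0.96 (exact permutation test, 2-sided p = 0.057). Scaled by library size only, every STIM KO library was above every CS library. The difference was then 1.01, with the smallest possible p of 0.0286 in the same exact permutation test. With TMM factors the difference was 1.46 within replicates 1 and 2 and 0.45 within replicates 3 and 4.

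The log2 fold change of Lcch3 was 1.08 (standard error 0.53) without the set term, for an unadjusted p of 0.0713 and a BH-adjusted p of 0.798 in the QL test of edgeR. With sets in the model it was 0.97 (0.34), for an unadjusted p of 0.0167 and a BH-adjusted p of 0.188 in the same edgeR test. The unadjusted p rose above 0.05 without CS replicate 1 (0.0630) or CS replicate 2 (0.0822) and was at most 0.0478 without any other library. By limma voom, without a set term, it was 0.57 (SE 0.35) at an unadjusted p of 0.133.

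Lcch3 ends 5966 bases before Stim, the gene deleted in STIM KO. Ranbp16 lies between them on the opposite strand and shares 456 exon bases with Lcch3, and the antisense RNA asRNA:CR45000 shares 140. Since the kit does not mark strand, reads of these genes cannot be told apart where they overlap. Ranbp16 had 1061, 1306, 195 and 196 CPM in CS and 913, 1709, 322 and 239 in STIM KO, with a log2 fold change of 0.33 (standard error 0.32) with the set term, and asRNA:CR45000 had 99.4, 12.1, 58.6 and 63.3 CPM in CS and 157, 160, 95.6 and 62.3 in STIM KO, with 0.93 (0.53). On the other side of Lcch3, beyond CG8916, lies Lrp4, which had 14727, 19280, 43.4 and 56.3 CPM in CS and 97.9, 122, 33.8 and 17.8 in STIM KO. Lrp4 was lower in both STIM KO libraries within each set, by far the most in replicates 1 and 2, with a log2 fold change of -6.98 (standard error 2.05) without and -4.16 (1.46) with the set term, and unadjusted p of 0.0071 and 0.0162 and BH-adjusted p of 0.549 and 0.184 in the QL test of edgeR. CG8924, next to Stim on its other side, had 86.6, 101, 382 and 326 CPM in CS and 187, 159, 454 and 344 in STIM KO. Its log2 fold change was 0.35 (standard error 0.62) without and 0.51 (0.29) with the set term. Whether the edited locus has a part in the level of Lcch3 was not tested.

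The other members of the group had log2 fold changes closer to 0. The glutamate-gated chloride channel GluClalpha had 125, 64.7, 24.5 and 16.3 CPM in CS and 26.0, 58.2, 65.7 and 37.1 in STIM KO, lower in both STIM KO libraries of replicates 1 and 2 and higher in both of replicates 3 and 4. The GABA-B receptor subunit GABA-B-R1 had 192, 105, 18.5 and 7.92 CPM in CS and 90.9, 154, 16.9 and 15.3 in STIM KO, and overlapped within both sets. Log2 fold changes without and with the set term were -0.26 (standard error 0.68) and 0.12 (0.59) for GluClalpha and -0.20 (1.06) and -0.0029 (0.52) for GABA-B-R1. Rdl, the main GABA-gated chloride channel subunit, had 317 counts in all and 199 countable bases, and its values were 0.62 (0.56) and 0.64 (0.50). Grd had 0.38 (0.72) and 0.39 (0.48), with 1118 of its exon bases shared with CG5577 on the opposite strand.

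None of the 5 glutamate receptor genes had an unadjusted p under 0.05 in the fits of edgeR, with the set term, with the replicate block or without either. Nmdar1 had 1984, 2244, 424 and 366 CPM in CS and 236, 1425, 588 and 390 in STIM KO. It was lower in both STIM KO libraries of replicates 1 and 2, by -1.86 in mean log2 CPM, and overlapped in replicates 3 and 4. STIM KO replicate 1 was the lowest of all 8 libraries although its set was the higher one in CS, and the log2 fold change was -0.93 (standard error 0.82) without and -0.52 (0.56) with the set term. Its partner Nmdar2 had 458, 416, 210 and 113 CPM in CS and 650, 641, 314 and 160 in STIM KO, higher in both STIM KO libraries of replicates 1 and 2 and overlapping in replicates 3 and 4, with 0.56 (0.63) and 0.56 (0.33). Within each of the 4 same-numbered pairs Nmdar2 was higher in STIM KO, and with the replicate block it had 0.55 (SE 0.28) at an unadjusted p of 0.0847 in the QL test of edgeR.

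The metabotropic receptor mGluR had 683, 332, 192 and 158 CPM in CS and 308, 595, 333 and 189 in STIM KO, overlapping in both sets, with log2 fold changes of 0.07 (standard error 0.59) and 0.21 (0.38). The non-NMDA receptor genes GluRIA and GluRIB had 0.47 (0.77) and 0.42 (1.41) without and 0.45 (0.38) and 0.67 (0.45) with the set term. They went opposite ways between the sets, GluRIA with 134.6 and 76.8 CPM in CS replicates 1 and 2 and 496 and 302 in replicates 3 and 4 (in STIM KO 194, 78.6, 715 and 419, higher in each same-numbered pair), and GluRIB with 449 and 621 CPM and 21.2 and 10.8 CPM.

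The genotype difference was also compared between the library sets, and no member passed the adjusted threshold. The interaction of genotype and set had an unadjusted p under 0.05 in 9 of 33 members (27.3%, beside 15.4% of all genes), and the smallest adjusted p was 0.168, that of slo, in the QL test of edgeR with BH adjustment, which called 4 genes in all and no member. In 8 of the 9 (para, Shaw, slo, SK, Ca-beta, nAChRalpha5, nAChRbeta2 and GluClalpha) the log2 fold change was more positive in replicates 3 and 4. In Ih it was more positive in replicates 1 and 2.

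Channel and receptor genes outside the 45 members were looked up from lists. Of 39 other channel genes 37 were matched to the files and 14 tested, and of 24 other receptor genes 22 and 8. Their median log2 fold changes with the set term were 0.19 and 0.53, beside 0.10 for all genes. Of the tested genes 10 of 14 and 6 of 8 were positive, beside 55.9% of all genes. At an unadjusted p under 0.05 there was 1 higher (Teh4, a relative of tipE) and 1 lower (galene, a relative of the potassium leak channels), and 0 in the receptor list, with 0 at an adjusted p under 0.05 in either. Teh4 had 67.3, 40.4, 407 and 250 CPM in CS and 597, 176, 865 and 604 in STIM KO, with 1.96 (SE 0.51) on the log2 scale and a BH-adjusted p of 0.102 in the QL test of edgeR. It was higher in both STIM KO libraries within each set.

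Markers of the cells that could hold these messages were read beside them. In the same fit the 11 neuronal markers had a median log2 fold change of 0.35, close to the 0.38 of the members, with 8 positive, 1 higher (nSyb, 1.44, standard error 0.45) and 1 lower (fne, -2.45, standard error 0.59) at an unadjusted p under 0.05 in the QL test of edgeR. Their summed level ran from 1204 to 8248 CPM (CS) and from 1871 to 8579 CPM (STIM KO). The 6 neuroblast markers had a median of -1.08 and none was positive, 1 of them (ase, -1.10, standard error 0.35) with an unadjusted p under 0.05, with sums of 1190 to 1500 CPM (CS) and 314 to 1517 CPM (STIM KO). The 4 tested of 7 glial markers had a median of -0.02, with wrapper lower (-0.92, standard error 0.30, unadjusted p of 0.0106 in the QL test of edgeR) and sums of 1162 to 2321 CPM (CS) and 838 to 2964 CPM (STIM KO).

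Single markers of other tissues also differed between the genotypes. Tested were 3 of 5 ring gland, 1 of 5 epidermis and 2 of 4 salivary gland genes. Untested genes did not all go the way of the tested ones of their list, such as Cpr67B of the epidermis (56 counts) and Sgs4 of the salivary gland (7 counts). Of the ring gland list, sad, an enzyme of ecdysone synthesis, was lower in STIM KO with the set term (-3.28, standard error 0.56, BH-adjusted p = 0.030 in the QL test of edgeR), and the list summed to 430 to 1464 CPM (CS) and 111 to 440 CPM (STIM KO). Of the epidermis list, the cuticle gene Cpr49Ag was lower (-4.26, standard error 0.60, BH-adjusted p = 0.015 in the same edgeR test), with sums of 28.9 to 237 and 5.99 to 43.7 CPM. Of the salivary gland list ng1 and ng2 were higher (2.998 and 3.02, standard error 0.79 for both, BH-adjusted p = 0.104 and 0.1003 in edgeR), with sums of 6.41 to 53.3 and 44.9 to 412 CPM. The muscle list summed to 451 to 4921 and 327 to 1898 CPM, the fat body list to at most 8.09 and 12.0 CPM, and the hemocyte list to at most 2.02 and 0 CPM. Of the 2 RNAs of the dosage compensation complex of the X chromosome, roX2 had 0, 22.2, 4.15 and 5.83 CPM in CS and 63.9, 56.8, 20.3 and 23.7 in STIM KO (2.19, standard error 0.60, BH-adjusted p = 0.108 in edgeR), and roX1 had -0.27 (0.78). Among the tested members, Lcch3, nAChRalpha3, Sh, Hk, SK, Ca-alpha1T, Nmdar2, para and cac lie on the X chromosome, and Ih and Shal do not. With the set term para (-0.0037) and cac (-0.46) were negative and the others on the X chromosome positive. A part of dosage compensation was not tested. The part of cell composition in the values of the members was not tested.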

How the data were processed

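After trimming and alignment to dm6 with HISAT2, reads were counted by the authors with HTSeq, who deposited unnormalized read counts for 34463 RefSeq features per library. The annotation version and the counting mode are not given in the sources used here. A deposited table of the authors' own DESeq2 comparison (mean signal, log2 fold changes, scores and p-values) was not used.

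By RefSeq identifier 34399 features were assigned to genes and 64 were not. Counts were summed per gene and tested with edgeR 4.0.16 under R 4.3.3 (TMM factors, filterByExpr at minima of 10 counts per library and 15 in all, quasi-likelihood test, Benjamini-Hochberg adjustment over 5540 genes), with genotype as the only term, and again with the library set as a term. That split, the members, the lists and the tests were chosen with earlier results of these data known. CPM use TMM-scaled totals, and their logarithms add a prior count of 2. For single members an exact permutation test (2-sided, 70 labelings) was run. Alternatives used DESeq2 1.42.0 and limma 3.58.1, other size factors, no expression filter, identifiers in place of genes, a replicate block, replicates 2 to 4, and leaving out each library. Python 3.11.15, scipy 1.17.1 and matplotlib 3.10.9 were also used. The fits were also run on simulated data with planted changes larger than those of the members. For the set term all genes were given the same dispersion, so the simulation does not show how the tests perform on the members.

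Per-library values are given for members with an unadjusted p under 0.05, with genotypes that do not overlap (none did by CPM with TMM factors), among the 3 highest mean CPM in CS of their group, or with fewer than 3 counts, and for others named where a count was small. Exon and countable bases are from the Ensembl annotation on the same assembly, which holds the same number of transcripts as RefSeq for 44 of the 45 members. Depth and its floor are given with the results. No 2 libraries of the same genotype agreed within sampling noise. Residuals of same-numbered libraries of the 2 genotypes correlated at 0.377 to 0.776, and those of other numbers in the same set at 0.336 to 0.716. Between the sets they correlated at -0.788 to -0.385. Every same-numbered pair exceeded the rule of 0.1, but so did the other pairs within a set. The rule thus shows the 2 sets and cannot show a pairing by number. The replicate block and the same-numbered pairs rest on the numbers in the labels only.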

Additional observations from a re-analysis of the deposited data

Results flagged for a closer look

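Among the 40 groups of 4 CPM values looked at (20 members with counts in each genotype), 1 stood out. Lcch3 in CS had 1 library far from the others, replicate 1 at 753 CPM against 573 to 602 CPM in the other 3, with a gap of 0.839 of the range, beyond Dixon's limit for 4 values. Chance alone flags about 1 in 20 groups. The value depends on the TMM factors, 0.795 for CS replicate 1 and 1.26 and 1.16 for CS replicates 3 and 4. Per counted read, replicate 1 (235 of 395680) lay between replicate 2 (290 of 626054) and replicates 3 and 4 (1242 of 1760190 and 1445 of 2090717). Replicate 1 is also the CS library with the fewest counted reads, 395680, and its part in the value was not tested.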

How the results depend on the processing

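Limits: 2 library sets of unknown origin, genotype confounded with age, and reads lost where transcripts share bases limit every value. The count of genes with an adjusted p under 0.05, 0 without a set term, was 39 with the library set, 16 with the replicate block, 78 by DESeq2, 2 with library size only, 4 with every gene of at least 1 count and 38 by limma voom. The count of members with an unadjusted p under 0.05 was 1 without a set term, beside 6.52% of all genes. It was 4 with the library set (17.0% of all genes) and 3 with the replicate block (14.7%). DESeq2 gave 2 (9.35%) and limma voom 3 (14.3%). Those of limma voom were Shaw, KCNQ and GluClalpha, none of the 4 called with the set term. The count was 0 with replicates 2 to 4 or with the identifier of most counts in place of each gene. Over all member identifiers 2 passed, 1 of Ih and 1 of Sh. Leaving out 1 library gave 0 genes in each case and 0 to 2 members. With the set term it gave 2 to 62 genes (39 with all libraries; 14, 2, 11 and 41 without CS replicates 1 to 4 and 62, 5, 21 and 12 without STIM KO replicates 1 to 4) and 1 to 6 members (4 with all). For replicates 2 to 4 and for the fits with 1 library left out, the share of all genes at an unadjusted p under 0.05 was not counted. The replicate block turned no member past the adjusted threshold.

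Of 342 alternative log2 fold changes of 19 members, 285 kept their direction and 57, of 12 members, reversed. The cause was not tested. With the set term Sh became 0.51, slo 0.24, Ca-alpha1T 0.30 and GluClalpha 0.12. With the replicate block para became 0.062, Sh 0.46, slo 0.18, Ca-alpha1T 0.25, GluClalpha 0.14 and GABA-B-R1 0.056. By limma voom para became 0.47, Sh 0.47, slo 1.36, Ca-alpha1T 0.66, Ca-beta 0.25, nAChRalpha5 0.81, GluClalpha 1.04 and GABA-B-R1 0.18. With replicates 2 to 4 para became 0.087, Sh 0.41, cac 0.013, Ca-alpha1T 0.057, GluClalpha 0.57 and GABA-B-R1 0.46. With upper-quartile factors tipE became -0.012, and with DESeq2 size factors -0.0073 (mGluR -0.011). By DESeq2 mGluR became -0.0086. With transcripts as deposited tipE became -0.095, with library size only Sh 0.077 and with every gene Sh 0.11. Leaving out 1 library gave -1.31 to 0.43 for para, -0.25 to 0.36 for tipE, -0.55 to 0.78 for Sh, -1.498 to 0.024 for slo, -1.75 to 0.019 for cac, -0.85 to 0.36 for Ca-alpha1T, -0.38 to 0.71 for nAChRalpha1, -0.58 to 0.39 for GluClalpha, -0.34 to 0.60 for mGluR and -0.99 to 0.64 for GABA-B-R1. Ih, Lcch3, nAChRalpha3, Shal, nAChRbeta1, Nmdar1 and Nmdar2 kept their direction in every alternative run but not their size. Leaving out 1 library gave 0.89 to 1.76 for Ih, 0.78 to 1.30 for Lcch3, 0.18 to 1.29 for nAChRalpha3, 0.24 to 1.05 for Shal, 0.17 to 0.63 for nAChRbeta1, -1.68 to -0.53 for Nmdar1 and 0.27 to 0.84 for Nmdar2. By limma voom Ih was 0.64 and Lcch3 0.57, and the main identifier of Ih alone gave 0.40. The difference in mean log2 CPM reached the smallest p of the exact permutation test, 0.0286, for Ih (1.21, from p = 0.114) and Lcch3 (1.01, from p = 0.057) with library size only. There the genotypes of both genes did not overlap, and how many of all genes did the same was not counted. With countable bases in place of exon bases the CS level of Lcch3 moved to 481 CPM per kb and that of para to 331 CPM per kb.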
